A study of Mus musculus with 18 samples.

Results

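The data describe 7 genes that encode subunits of the GABA-A receptor in the ipsilateral dorsal horn of the spinal cord (DHSC). The genes are the alpha subunit genes Gabra2, Gabra3, Gabra4 and Gabra5, the beta subunit genes Gabrb1 and Gabrb2, and the gamma subunit gene Gabrg1. They were chosen by symbol, and all 7 were found among the 55573 genes of the count table and had enough counts for the tests. The rule used no measured value.

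The DHSC was dissected 2H after 2% formalin had been injected into a hind paw of adult C57BL/6J mice, with the volume scaled to body weight. The groups were 6 females in proestrus whose pain behavior had a short interphase (F1/proestrus), 6 females in metestrus with a long interphase (F2/metestrus), and 6 males. Every sample received formalin, no naive group was sequenced, and stage and behavior go together in the females, so that these cannot be told apart. The study counts animals and calls the samples biological replicates, while the labels do not name the animal behind each library. In bulk tissue, fewer cells of a type and less RNA per cell cannot be told apart.

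GABA-A receptors are chloride channels opened by the inhibitory transmitter GABA and built from 5 subunits, usually of the alpha, beta and gamma classes. The alpha subunit shapes the affinity for GABA and for benzodiazepines, the beta subunit contributes to the GABA binding site and to surface delivery, and the gamma subunit to benzodiazepine binding and synaptic clustering. In the dorsal horn these receptors are known to restrain the relay of nociceptive signals, and receptors that hold the alpha2, alpha3 or alpha5 subunit have been studied there as targets of benzodiazepine site ligands.

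Of the 7 genes, 4 lie side by side on chromosome 5 (coordinates in GRCm38, GENCODE vM21). In this order they are Gabrg1 at chr5:70751047-70842617, Gabra2 at chr5:70957597-71095849, Gabra4 at chr5:71569749-71658308 and Gabrb1 at chr5:71658113-72149037. The first 3 are transcribed from the minus strand and Gabrb1 from the plus strand. Gabra4 and Gabrb1 stand head to head and overlap by 196 bp, of which 46 bp are exon in both genes (0.756% of the exon length of Gabra4), and whether the counting used strand is not stated. The others lie apart, with Gabra3 on the minus strand at chrX:72432681-72656848, Gabra5 on the minus strand at chr7:57407672-57510059, and Gabrb2 on the plus strand at chr11:42419757-42629028. Gabra5 shares 148 bp of exon (4.98% of its exon length) with Gm9962 on the opposite strand, so its counts are uncertain to that extent.

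The sequences just upstream of a start site are shown for the 2 pairs of subunits with the highest correlation of their measured levels over the samples, Gabra2 with Gabrg1 and Gabra3 with Gabrb2. They were taken from RefSeq promoter windows (GRCm38.p6), are written 5′ to 3′ on the strand of the gene, and every CG dinucleotide is in capitals. They lie at chr5:71095850-71096099 (minus strand), chr5:70842618-70842867 (minus strand), chrX:72656849-72657057 (minus strand, with 41 bases of exon left out) and chr11:42420190-42420439 (plus strand, the first of 3 windows of this gene). The last of these ends at a RefSeq start 683 bp past the GENCODE start, so that it lies inside the annotated gene of Gabrb2, in no annotated exon.
Gabra2: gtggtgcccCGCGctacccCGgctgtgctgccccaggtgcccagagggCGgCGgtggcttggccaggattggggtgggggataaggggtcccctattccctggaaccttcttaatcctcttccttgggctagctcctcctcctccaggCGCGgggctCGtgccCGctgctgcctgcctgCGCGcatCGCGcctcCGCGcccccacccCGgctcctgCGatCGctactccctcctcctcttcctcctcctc
Gabrg1: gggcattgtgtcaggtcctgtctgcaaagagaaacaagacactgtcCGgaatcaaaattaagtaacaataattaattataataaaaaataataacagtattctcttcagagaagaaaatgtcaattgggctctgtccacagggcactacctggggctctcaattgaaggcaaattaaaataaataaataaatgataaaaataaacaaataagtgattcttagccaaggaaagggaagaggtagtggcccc
Gabra3: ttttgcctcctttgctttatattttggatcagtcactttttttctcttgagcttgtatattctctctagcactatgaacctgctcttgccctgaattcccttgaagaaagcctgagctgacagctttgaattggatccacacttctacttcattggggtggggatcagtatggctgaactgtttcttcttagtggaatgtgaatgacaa
Gabrb2: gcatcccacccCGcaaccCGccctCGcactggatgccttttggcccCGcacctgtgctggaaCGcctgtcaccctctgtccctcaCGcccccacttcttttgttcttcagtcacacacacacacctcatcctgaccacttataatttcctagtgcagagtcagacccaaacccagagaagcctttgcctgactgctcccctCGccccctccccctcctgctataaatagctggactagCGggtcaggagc

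The upstream sequences differed widely in base composition, also within the pairs. The run shown for Gabra2 held 18 CG dinucleotides and was 70% G or C, whereas that of its neighbor Gabrg1 held 1 and was 35.6% G or C. The run of Gabra3 held 0 and that of Gabrb2 held 8. Over whole windows of 300 bases the count was 25 in Gabra2 and in the first window of Gabrb1, 13 in Gabra5, 12 in Gabra4, 11 in the first window of Gabrb2, 3 in Gabrg1 and 0 in Gabra3, beside a median of 7 over 32817 windows of all genes. The further windows of Gabrb1 and Gabrb2 held 9 each.

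Short motifs were searched on both strands of the 11 windows of the 7 genes. The letters TATAAA, known from TATA boxes, were found in windows of Gabra3 and Gabrb2, and in 13.6% of all windows. The letters GGGCGG, known from GC boxes, were found for Gabra2, Gabra4 and Gabrb2, and in 35.6% of all windows. Neither the estrogen response element GGTCA, 3 free bases and TGACC (0.0701% of all windows), nor the letters AGGTCA (16.3%), nor the progesterone and glucocorticoid response element GNACA, 3 free bases and TGTNC (0.475%), nor the cAMP response element TGACGTCA (1.79%) occurred in these 11 windows. These matches describe letters in short windows and say nothing about binding.

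Between 73590509 and 125724156 reads were counted on genes per sample, and the 7 subunit genes had between 1753 and 14998 counts in each sample. Levels are given in CPM, counts scaled to library size after TMM normalization. Sums over cell type markers are in CPM of the total counts, without TMM normalization. Markers of dorsal horn excitatory neurons (9 of 9 found) summed to 530 to 714 CPM per sample, beside 4.86 to 15.0 CPM for 5 markers of ventral neurons, and none of these markers was at 0 in all samples. The motor neuron markers varied from 80.8 to 490 CPM, and were highest in F1/proestrus replicate 5. F1/proestrus replicate 5 stood apart, with sensory ganglion transcripts that the other 17 samples had at low levels (Avil at 132 CPM against 0.279 to 0.903, Scn10a at 125 against 0 to 0.153). The library numbers in the count table form 2 series, 27 to 35 for replicates 1 to 3 of every group and 188 to 196 for replicates 4 to 6. What separates the series is not stated in the sources used here, and the labels give 1 protocol for all samples.

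The 7 subunit transcripts were found at very different levels, and the order was led by Gabra5 and Gabra3. Levels were compared between genes per kb of exon. Over the 18 samples Gabra5 had 35.5 ± 2.24 CPM per kb (mean ± SD, n = 18) and Gabra3 had 26.9 ± 2.77. A gap separated them from Gabra2 with 6.92 ± 0.678, Gabrg1 with 5.56 ± 0.548, Gabrb2 with 5.39 ± 0.806, Gabra4 with 4.63 ± 0.480 and Gabrb1 with 4.08 ± 0.287. Gabra5 was above Gabra3 in 18 of 18 samples. Gabrg1 was above Gabrb2 in 10 of 18 samples, and their order differed between the replicate series. In every sample of replicates 4 to 6 Gabrg1 was the higher, and in most of replicates 1 to 3 Gabrb2 was. Between the series Gabrb2 had a log2 fold change of -0.34 and Gabrg1 of -0.03, as given below. With the longest transcript as the length in place of all exons, Gabrg1 and Gabra2 changed places in the order.

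**Figure D1:**
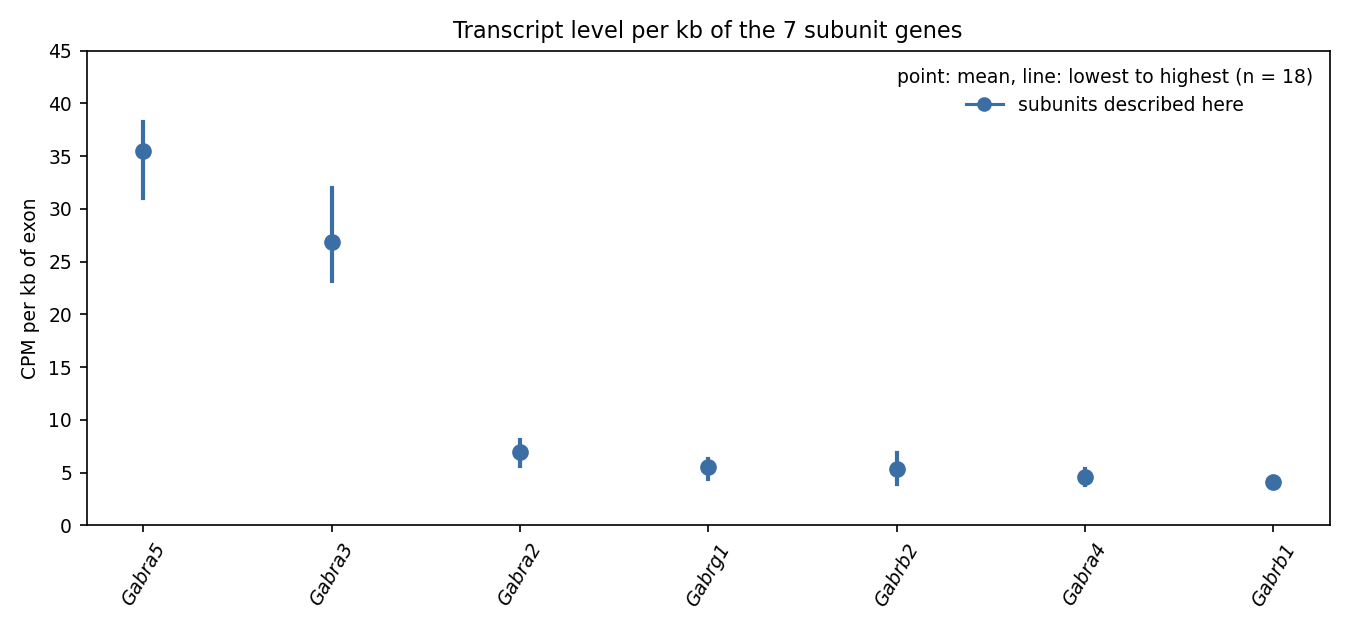
Transcript level of the 7 subunit genes (x axis) in CPM per kb of exon (y axis, from 0). Points are means and lines run from the lowest to the highest of the 18 samples. Gabra5 and Gabra3 lead the order at 35.5 and 26.9 CPM per kb, and the other 5 points lie between 4.08 and 6.92.

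Of the other subunits, the genes Gabrq, Gabrg3, Gabrr2, Gabrd, Gabre and Gabrr1 had means from 2.31 down to 0.0615 CPM per kb. Gabra6, the cerebellar alpha subunit, had 0 counts in all samples, and Gabrp and Gabrr3 had 11 and 35 counts in all, too few for a test.

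The transcripts also differed in how much they varied. Gabra5 was the steadiest, with a coefficient of variation of 6.31% over the 18 samples, followed by Gabrb1 with 7.05%. Gabra2, Gabrg1, Gabra3 and Gabra4 had 9.79% to 10.4%. Gabrb2 varied most, with 15.0% and a 1.72-fold span from its lowest to its highest sample.

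The first comparison asked whether the subunit transcripts differed between females in F2/metestrus and F1/proestrus, the groups with a long and a short interphase. None of the 7 passed the test (edgeR's quasi-likelihood test with Benjamini-Hochberg adjustment at 5%), and 0% of the 24042 genes tested did. Without adjustment, 596 genes (2.48%) and 0 of the 7 subunits had a p under 0.05. DESeq2 called 2 genes and limma voom 0.

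Gabra2, which encodes an alpha subunit common at inhibitory synapses, ranged from 48.9 to 57.6 CPM with a median of 51.6 in F1/proestrus. In F2/metestrus it ranged from 49.3 to 62.2 with a median of 55.1. The groups overlapped, and the log2 fold change of 0.08 ± 0.0643 (SE; edgeR adjusted p = 1) was that with the smallest p of the 7. Gabra3 ranged from 91.0 to 125 CPM (median 98.6) in F1/proestrus and from 98.9 to 125 (median 103) in F2/metestrus. All 6 samples in F2/metestrus were above the median of F1/proestrus, and 3 of the 6 in F1/proestrus lay below the lowest in F2/metestrus, while the other 3 were at 99.8 to 125 CPM (log2 fold change 0.06, 95% CI -0.12 to 0.25).

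Gabra4, whose product is found mainly outside synapses, had 23.2 to 32.3 CPM (median 28.2) in F1/proestrus and 27.3 to 31.5 (median 29.0) in F2/metestrus. Gabra5, also mainly extrasynaptic, had 92.1 to 114 CPM (median 107) in F1/proestrus and 95.3 to 112 (median 104) in F2/metestrus. In both genes the range in F2/metestrus lay within that in F1/proestrus. The log2 fold changes were 0.06 (95% CI -0.12 to 0.25) and -0.01 (95% CI -0.14 to 0.12).

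Gabrb1 had 51.7 to 60.7 CPM (median 54.3) in F1/proestrus and 49.7 to 63.4 (median 56.5) in F2/metestrus. Gabrb2 had 28.8 to 43.5 CPM (median 33.2) and 32.4 to 40.8 (median 37.2), and Gabrg1 had 36.6 to 49.2 (median 43.5) and 40.5 to 49.7 (median 45.1). The groups overlapped in all 3 genes. Their log2 fold changes were 0.02 (95% CI -0.11 to 0.16), 0.07 (95% CI -0.16 to 0.29) and 0.06 (95% CI -0.10 to 0.21).

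For the 7 genes the intervals bound a difference between the female groups to at most 0.29 on the log2 scale, the upper limit for Gabrb2, and 0.16 in the negative direction. The median log2 fold change was 0.064, beside -0.000 over all genes tested, with 6 of the 7 above 0. Without F1/proestrus replicate 5, the sample with sensory ganglion transcripts, the log2 fold changes lay between -0.04 and 0.06. The share of genes whose female groups did not overlap was 0.105% of 24862, and it held 0 of the 7. No cell type marker passed here. Estimates were below 0 for 9 of 9 dorsal horn excitatory, 7 of 9 inhibitory and 5 of 6 sensory ganglion markers. They were above 0 for 7 of 7 astrocyte, 6 of 6 oligodendrocyte, 6 of 6 microglia and 5 of 5 ventral neuron markers. An unadjusted p under 0.05 was held by 4 sensory ganglion and 2 inhibitory markers. The part of these markers in the subunit values was not tested.

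The female groups were also compared within each replicate series, with 3 samples against 3. In replicates 4 to 6 Gabrb2 had 29.5, 29.8 and 28.8 CPM in F1/proestrus and 32.6, 37.5 and 32.4 in F2/metestrus, and Gabra3 had 95.3, 91.0 and 97.4 and then 98.9, 103 and 102. The groups did not overlap for these 2 of the 7, beside 6.72% of all genes. In replicates 1 to 3 they overlapped for all 7, beside 9.59% of genes that did not. The log2 fold change of Gabrb2 was 0.22 in replicates 4 to 6 and -0.06 in replicates 1 to 3, that of Gabra3 0.10 and 0.03, and that of Gabra4 0.18 and -0.04, with an edgeR adjusted p of 1 for each. Whether these differ between the series was not tested.

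**Figure D2:**
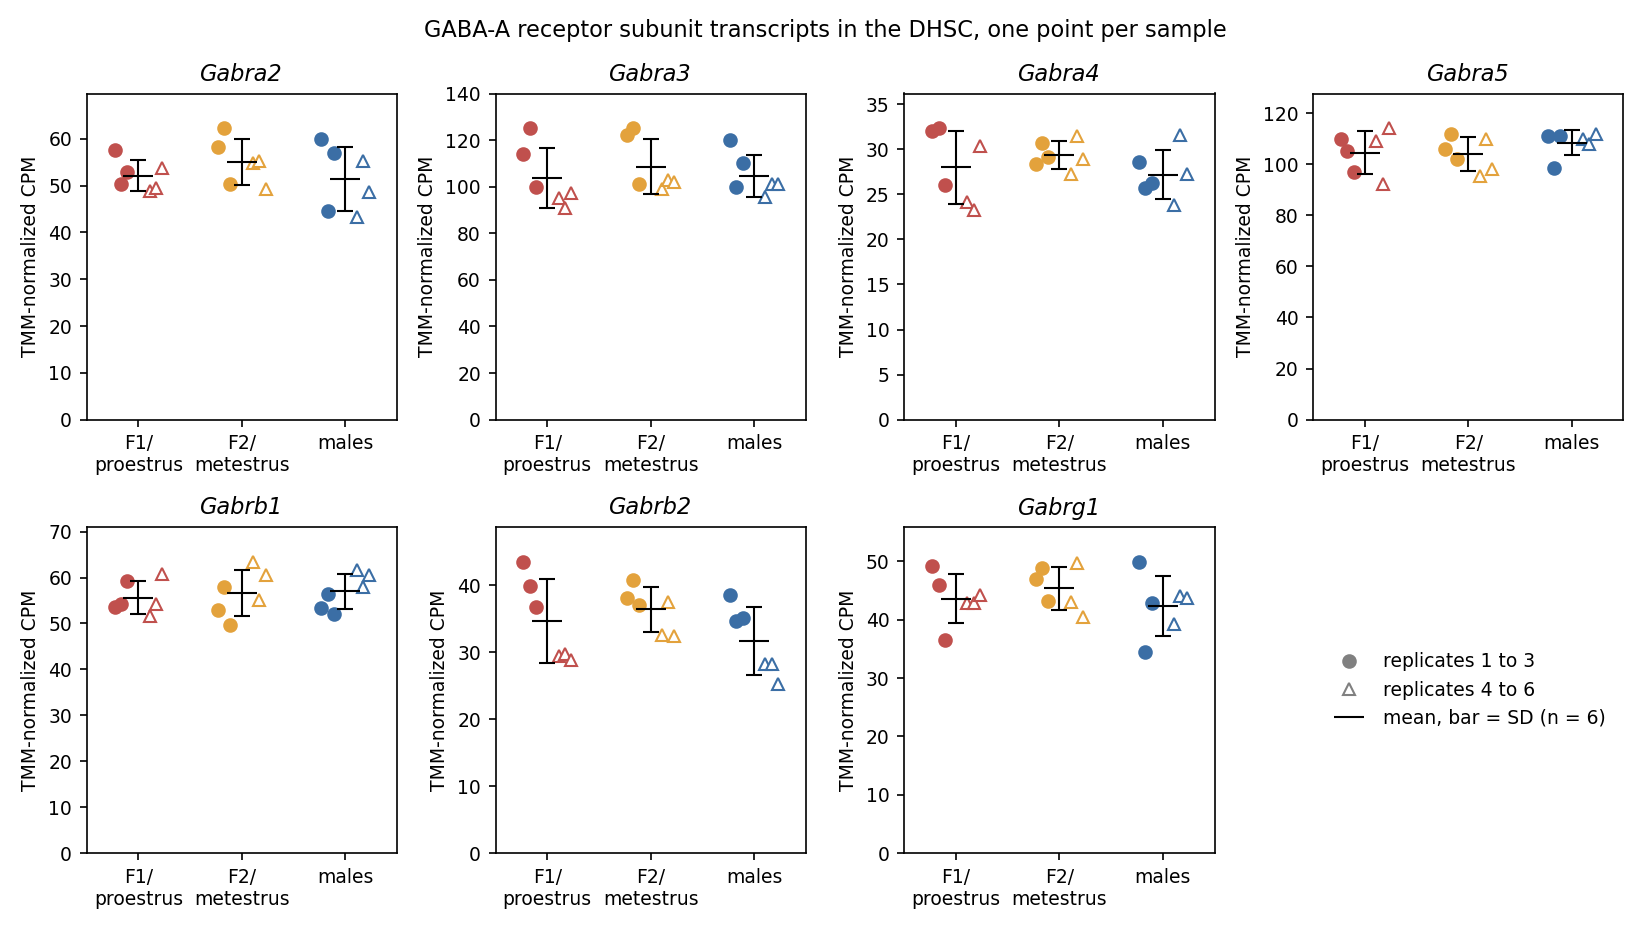
TMM-normalized CPM (y axis, from 0) of the 7 subunit genes in each of the 18 samples, by group (x axis). Filled circles are replicates 1 to 3, open triangles replicates 4 to 6, and bars the mean and SD of 6 samples. The groups overlap in every panel, and in Gabrb2 the triangles lie at 25.3 to 37.5 CPM and the circles at 34.7 to 43.5.

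The other genes of GABA-A transmission gave the same count between the female groups. Of 6 other subunits, 0 passed, and the smallest p belonged to Gabre (log2 fold change -0.28, edgeR adjusted p = 1) and Gabrr1 (-0.35, adjusted p = 1). Both rested on F1/proestrus replicate 2, without which they were -0.08 and -0.01. Of 17 genes for receptor assembly, anchoring and clearance, 0 passed, with the smallest p for the scaffold gene Gphn (-0.06, edgeR adjusted p = 1). Of 12 genes for GABA supply and chloride, 0 passed, with the smallest p for the GABA transporter gene Slc6a11 (0.07, edgeR adjusted p = 1). Neurosteroids, made in part from progesterone, act on these receptors. Of 10 genes for neurosteroid synthesis and steroid receptors, 0 passed, with the smallest p for Cyp11a1, which encodes the first enzyme of the pathway (-0.25, edgeR adjusted p = 1).

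The second comparison asked whether the subunit transcripts differed between males and the 12 females. None of the 7 passed the test, beside 49 of 24862 genes tested (0.197%; 0.149% higher and 0.0483% lower in males). Without adjustment, 9.72% of the genes and 0 of the 7 had a p under 0.05. The groups overlapped in all 7 genes, beside 0.125% of genes whose sexes did not overlap. The median log2 fold change of the 7 was -0.060 with 5 of 7 below 0, and that of all genes tested was -0.001.

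Gabrb2, which encodes a beta subunit, had the smallest p of the 7. In males it ranged from 25.3 to 38.5 CPM with a median of 31.5. In females it ranged from 28.8 to 43.5 CPM with a median of 36.8. The ranges overlapped widely, and the log2 fold change was -0.17 ± 0.0973 (SE; edgeR adjusted p = 0.577).

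Set apart by replicate series, the male values of Gabrb2 lay toward the low end. In replicates 1 to 3 the males had 38.5, 34.7 and 35.1 CPM, and the 6 females had 36.7 to 43.5. In replicates 4 to 6 the males had 28.3, 28.2 and 25.3 CPM, and the 6 females had 28.8 to 37.5. The sexes overlapped in the first series, where 3.85% of all genes did not, and were apart in the second, where 5.24% of all genes were. All 6 males were below the median of the females of their series. With the series as a covariate the log2 fold change was again -0.17, and the edgeR adjusted p was 0.130, so the gene did not pass. In that fit 0.528% of the 25180 genes tested passed, 16.3% had an unadjusted p under 0.05 and 3.73% one under 0.005, Gabrb2 among them. Leaving out each sample in turn, the adjusted p of that fit lay between 0.0861 and 0.313, and DESeq2 with the same covariate, chosen after seeing the data, gave an adjusted p of 0.0545, where 3.44% of genes passed.

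Whether the estimate between the sexes in Gabrb2 depended on the series was also tested. The interaction was -0.09 on the log2 scale (95% CI -0.32 to 0.14, edgeR adjusted p = 0.970). It did not pass, and an interval this wide does not settle the question. For the 7 genes the interaction lay between -0.09 and 0.16, and 0 of 7 passed, beside 0% of 26075 genes tested. In this test 1238 genes (4.75%) and 0 of the 7 had an unadjusted p under 0.05, and DESeq2 called 13 genes.

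The 4 alpha subunits differed little between the sexes. Gabra2 ranged from 43.3 to 59.9 CPM (median 52.0) in males and from 48.9 to 62.2 (median 53.3) in females, with a log2 fold change of -0.06 (95% CI -0.20 to 0.08). Gabra3, which is X-linked, ranged from 95.5 to 120 (median 101) in males and from 91.0 to 125 (median 102) in females, with a log2 fold change of -0.02 (95% CI -0.17 to 0.13). The lowest 3 values of Gabra2 were those of males, and for Gabra3 the range in males lay within that in females.

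Gabra4 ranged from 23.8 to 31.6 CPM (median 26.7) in males and from 23.2 to 32.3 (median 29.0) in females, with a log2 fold change of -0.08 (95% CI -0.23 to 0.08). Gabra5 ranged from 98.6 to 112 CPM (median 111) in males and from 92.1 to 114 (median 105) in females, with a log2 fold change of 0.06 (95% CI -0.04 to 0.16). Male replicate 2 was the lowest male for Gabra5, at 98.6 CPM, and the other 5 males lay between 108 and 112.

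Gabrb1 and Gabrg1 were likewise within their spread. Gabrb1 ranged from 52.0 to 61.6 CPM (median 57.1) in males and from 49.7 to 63.4 (median 54.7) in females, with a log2 fold change of 0.02 (95% CI -0.09 to 0.13). Gabrg1, which encodes a gamma subunit, ranged from 34.4 to 49.9 CPM (median 43.3) in males and from 36.6 to 49.7 (median 43.7) in females, with a log2 fold change of -0.07 (95% CI -0.22 to 0.08).

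Few markers of cell types passed between the sexes, where 0.197% of all genes passed and 9.72% had an unadjusted p under 0.05. Of 5 Schwann cell markers 1 passed, Ncmap, and all 5 had estimates above 0 (median log2 fold change 0.671) with an unadjusted edgeR p under 0.05. Their sum ranged from 1852 to 4560 CPM in males and from 1243 to 2575 in females. The 2575 was that of F1/proestrus replicate 5, and the next highest female was at 1890. Of 9 dorsal horn excitatory markers 1 passed, Grp, at 8.60 to 18 CPM in males and 5.30 to 10.6 in females, while 8 had estimates above 0 (median 0.212) and 5 an unadjusted p under 0.05. Of the pan-neuronal markers 0 of 7 passed, and their sum ranged from 7242 to 8577 CPM in males and from 7282 to 8807 in females. Of 7 motor neuron markers 0 passed and 7 had estimates below 0 (median log2 fold change -0.557), with sums of 80.8 to 260 CPM in males and 107 to 490 in females. The 490 was again that of F1/proestrus replicate 5, and the next highest female was at 296. Of 5 ventral neuron markers 0 passed and 4 were below 0 (median -0.233), with sums of 4.86 to 12.8 CPM in males and 8.72 to 15.0 in females. Of 6 sensory ganglion markers 0 passed, 6 were below 0 (median -4.115) and 5 had an unadjusted p under 0.05. The females here include F1/proestrus replicate 5, which stood apart. Of 9 dorsal horn inhibitory markers 0 passed, 6 were above 0 and 3 had an unadjusted p under 0.05. For 6 microglia markers these counts were 0, 5 and 1. With the pan-neuronal score as a covariate the log2 fold change of Gabrb2 was -0.21 (edgeR adjusted p = 0.306), and with the motor neuron score it was -0.16 (adjusted p = 0.819). The part of Schwann cells, dorsal horn excitatory and inhibitory neurons, ventral neurons, sensory ganglion neurons and microglia in the subunit values was not tested.

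**Figure D3:**
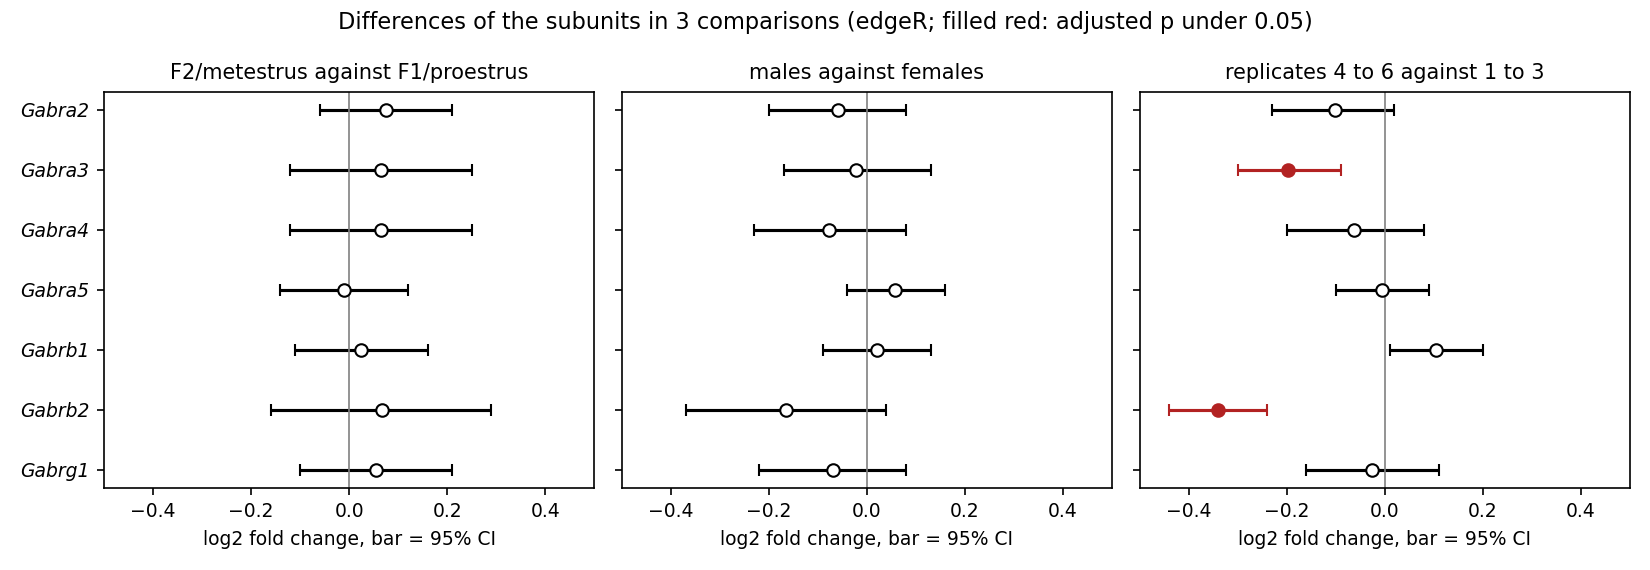
Log2 fold changes (x axis) of the 7 subunit genes in 3 comparisons, with 95% confidence intervals from edgeR. Filled red points passed the test at an adjusted p under 0.05. No gene passed between the female groups or the sexes, and Gabrb2 (-0.34) and Gabra3 (-0.20) passed between the replicate series.

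The lists of other genes held no call between the sexes either. Of 6 other subunits 0 passed, with the smallest p for Gabre (log2 fold change 0.27, edgeR adjusted p = 0.675) and Gabrg3 (0.06, edgeR adjusted p = 0.810). Of 17 assembly, anchoring and clearance genes 0 passed, with the smallest p for Slitrk3, which encodes an adhesion protein of inhibitory synapses (-0.13, edgeR adjusted p = 0.538). Of 12 genes for GABA supply and chloride 0 passed, with the smallest p for Wnk1, which encodes a kinase that controls chloride transport (-0.14, edgeR adjusted p = 0.502). Of 10 neurosteroid genes 0 passed, with the smallest p for Srd5a2, which encodes a 5-alpha reductase (0.96, edgeR adjusted p = 0.145). Srd5a2 was at 0.775 to 2.73 CPM in males and 0.264 to 1.45 in females, and DESeq2, which called 0.696% of genes, called it with an adjusted p of 0.0210. With edgeR Srd5a2 passed when male replicate 3 was left out (adjusted p = 0.0363), in 1 of 18 such fits, and in 2 of 18 with the series as a covariate, and the adjusted p of the 18 fits reached 0.332. Another gene of the list, Akr1c14, which encodes an aldo-keto reductase, had an estimate in the other direction (-0.40, 95% CI -0.64 to -0.17, edgeR adjusted p = 0.210).

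The third comparison set replicates 4 to 6 against replicates 1 to 3, with the group as a covariate. Here 2 of the 7 subunits passed, both lower in replicates 4 to 6, beside 26.9% of the 25180 genes tested (14.2% higher and 12.7% lower). Without adjustment 3 of the 7 had a p under 0.05, beside 37.6% of genes. A share of 2 of 7 is near this background and is no result about the subunits as a set. The median log2 fold change was -0.062 for the 7 and 0.004 for all genes tested.

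Gabrb2 was lower in replicates 4 to 6, 1.27-fold. In F1/proestrus it had 43.5, 39.9 and 36.7 CPM in replicates 1 to 3 and 29.5, 29.8 and 28.8 in replicates 4 to 6. In F2/metestrus it had 38.1, 40.8 and 37.0 CPM, and then 32.6, 37.5 and 32.4. Its male values, given above, fell into separate ranges, as did those of F1/proestrus. The series overlapped only through F2/metestrus replicate 5, at 37.5 CPM, and 9 of 9 samples of the second series were below the median of the first in their own group. The log2 fold change was -0.34 ± 0.0499 (SE; edgeR adjusted p = 5.12e-05).

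The difference in Gabrb2 held when each sample was left out (adjusted p from 1.43e-05 to 3.11e-04). Within single groups of 3 against 3 it was -0.44 in F1/proestrus (adjusted p = 0.0597), -0.18 in F2/metestrus (adjusted p = 0.259) and -0.41 in males (adjusted p = 0.0289), all by edgeR. With the pan-neuronal score as a covariate it was -0.33 (adjusted p = 0.00243).

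Gabra3 was also lower in replicates 4 to 6, 1.15-fold. It had 114, 125 and 99.8 CPM in F1/proestrus replicates 1 to 3 and 95.3, 91.0 and 97.4 in replicates 4 to 6. In F2/metestrus it had 122, 125 and 101, and then 98.9, 103 and 102. In males it had 120, 100 and 110, and then 95.5, 101 and 101. Every group held 1 sample of the first series near the values of the second, so that the series overlapped, and 9 of 9 samples of the second were below the median of the first in their own group. The log2 fold change was -0.20 ± 0.0496 (SE; edgeR adjusted p = 0.00535). With the pan-neuronal score as a covariate it was -0.11 (adjusted p = 0.228), and within single groups it was -0.26, -0.20 and -0.15, with adjusted p from 0.165 to 0.301.

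Gabrb1 was the only one of the 7 with a positive estimate. It ranged from 49.7 to 59.3 CPM (median 53.5) in replicates 1 to 3 and from 51.7 to 63.4 (median 60.6) in replicates 4 to 6. The log2 fold change was 0.11 ± 0.0453 (SE; edgeR adjusted p = 0.0931), which did not pass.

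The remaining 4 subunits did not pass. Gabra2 had a log2 fold change of -0.10 (95% CI -0.23 to 0.02), Gabra4 of -0.06 (95% CI -0.20 to 0.08), Gabra5 of -0.00 (95% CI -0.10 to 0.09) and Gabrg1 of -0.03 (95% CI -0.16 to 0.11). Gabra5 thus held its level between the series most closely, at 106 ± 5.62 CPM and 105 ± 7.91 (n = 9 each).

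Between the series, some markers of cell types passed, beside 26.9% of all genes (14.2% higher and 12.7% lower). Of 7 pan-neuronal markers 3 were higher in replicates 4 to 6, of 9 dorsal horn excitatory markers 5 were higher, and of 9 dorsal horn inhibitory markers 3 were higher and 1 lower. The summed inhibitory markers had a median of 889 CPM in the first series and of 798 in the second. Of 6 microglia markers 3 were higher and 1 lower, and all 5 oligodendrocyte precursor markers passed, 2 higher and 3 lower. Of 7 astrocyte markers 1 passed, of 6 oligodendrocyte markers 1 and of 5 Schwann cell markers 1, and of the 7 motor neuron and 5 ventral neuron markers 0 passed. The 1 of 6 sensory ganglion markers that was higher was Scn10a, at 125 CPM in F1/proestrus replicate 5 and 0 to 0.153 in the other 17 samples. That call thus rests on 1 sample. Of 5 endothelial markers 1 was higher and 1 lower. The part of these in the values of Gabrb2 and Gabra3 was not tested beyond the pan-neuronal covariate given above and the motor neuron score, with which they were at -0.34 and -0.21 and still passed.

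Among the other genes of GABA-A transmission, those that passed between the series were mostly lower in replicates 4 to 6. Of 6 other subunits 2 passed, Gabre (log2 fold change -0.54) and Gabrq (-0.28). Of 17 assembly, anchoring and clearance genes 11 were lower and 2 higher. The 11 were Magi2, Slitrk3, Trak2, Iqsec3, Shisa7, Nlgn3, Plcl1, Plcl2, Trak1, Lhfpl4 and Gphn, from -0.49 for Shisa7, an auxiliary subunit of the receptor, to -0.11 for the scaffold gene Gphn. The 2 that were higher were the trafficking genes Gabarap (0.22) and Gabarapl1 (0.17). Of 12 genes for GABA supply and chloride 5 were lower, the chloride transporter genes Slc12a2 (-0.31) and Slc12a5 (-0.26), and Abat, Wnk1 and Oxsr1 (-0.16 to -0.15), of which Oxsr1 lost its call in 14 of 18 fits that left out a sample (adjusted p up to 0.0944) and in 5 of 10 other alternatives (up to 0.514). Of 10 neurosteroid genes Tspo was higher (0.31) and Esr1 (-0.23) and Star (-0.21) were lower. These counts stand beside the 26.9% of all genes that passed. With the pan-neuronal score as a covariate, 6 of these genes lost their call, Gabrq (-0.11, edgeR adjusted p = 0.486), Gabre (-0.46, 0.144), Shisa7 (-0.31, 0.0847), Gphn (-0.11, 0.119), Oxsr1 (-0.09, 0.450) and Tspo (0.34, 0.0596). Leaving out 1 sample, the call was lost in 4 of 18 fits for Gphn, in 2 each for Lhfpl4 and Wnk1, and in 1 each for Trak1 and Star. Estimates also differed between single groups. That of Gabre was -0.89 in F1/proestrus and -0.29 in F2/metestrus, and that of Star was -0.34 and -0.00.

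Of the 21 pairs of subunits, 15 had a positive Pearson correlation of log2 CPM over the 18 samples, and 7 had a permutation p under 0.05 after adjustment over the 21 pairs, all of them positive. After centring within group and series, 10 pairs had an adjusted p under 0.05, and 6 pairs were among both. The permutation p after centring did not allow for the means removed. They are therefore too small, and these counts are not read as calls. Over all pairs of the 24862 genes 49.7% had a positive r, and 5.26% reached the lowest r of those 7 pairs, 0.56. Among the 7246 genes at or above the mean level of the lowest subunit the shares were 51% and 14.4%. After centring, 5.96% of all pairs and 12.8% of pairs of these 7246 genes reached the lowest r of those 10 pairs, 0.54. High correlations are thus frequent in these samples, and no test of the subunits as a set was made. Highest after centring were Gabra3 with Gabrg1 (r = 0.76), Gabra2 with Gabrg1 (0.75) and Gabrb2 with Gabrg1 (0.70).

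Gabra2 and its chromosomal neighbor Gabrg1 had r = 0.73 and Spearman's rho = 0.75 (n = 18, permutation p = 5.00e-04 and 5.50e-04, adjusted p = 0.00577 and 0.00609). The r was 0.78 in replicates 1 to 3 and 0.74 in replicates 4 to 6 (n = 9 each, permutation p = 0.0117 and 0.0256), and 0.59 without the 2 samples farthest from the median of Gabra2. This pair held within both series. The upstream sequences of these genes, shown above, held 18 and 1 CG dinucleotides.

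Gabra3 and Gabrb2 also had r = 0.73 and rho = 0.73 (n = 18, permutation p = 5.50e-04 and 8.70e-04, adjusted p = 0.00577 and 0.00609), and 0.67 without the 2 samples farthest from the median of Gabra3. Within the series the r was 0.63 and 0.29 (n = 9 each, permutation p = 0.071 and 0.441). By rank, rho was 0.73 and 0.22 (n = 9 each, permutation p = 0.0311 and 0.581). Over all samples after centring, r was 0.48 with an adjusted permutation p of 0.0704, which is too small for the reason given above. The relation as measured includes the difference between the series, in which both genes were lower in replicates 4 to 6, and within them it was seen by rank in replicates 1 to 3 only, before adjustment.

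Gabrb1 was the exception, with a negative r to all 6 others over the 18 samples, from -0.05 to -0.47, and none of these passed the adjusted test. After centring they lay between -0.36 and 0.01. Gabra4 and Gabrb1, whose starts overlap head to head, had r = -0.05 and rho = -0.04 (n = 18, permutation p = 0.853 and 0.871, adjusted p = 0.896 and 0.932). Within the series it was -0.18 and 0.25 (n = 9 each, permutation p = 0.636 and 0.516), and 0.04 without the 2 samples farthest from the median of Gabra4.

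**Figure D4:**
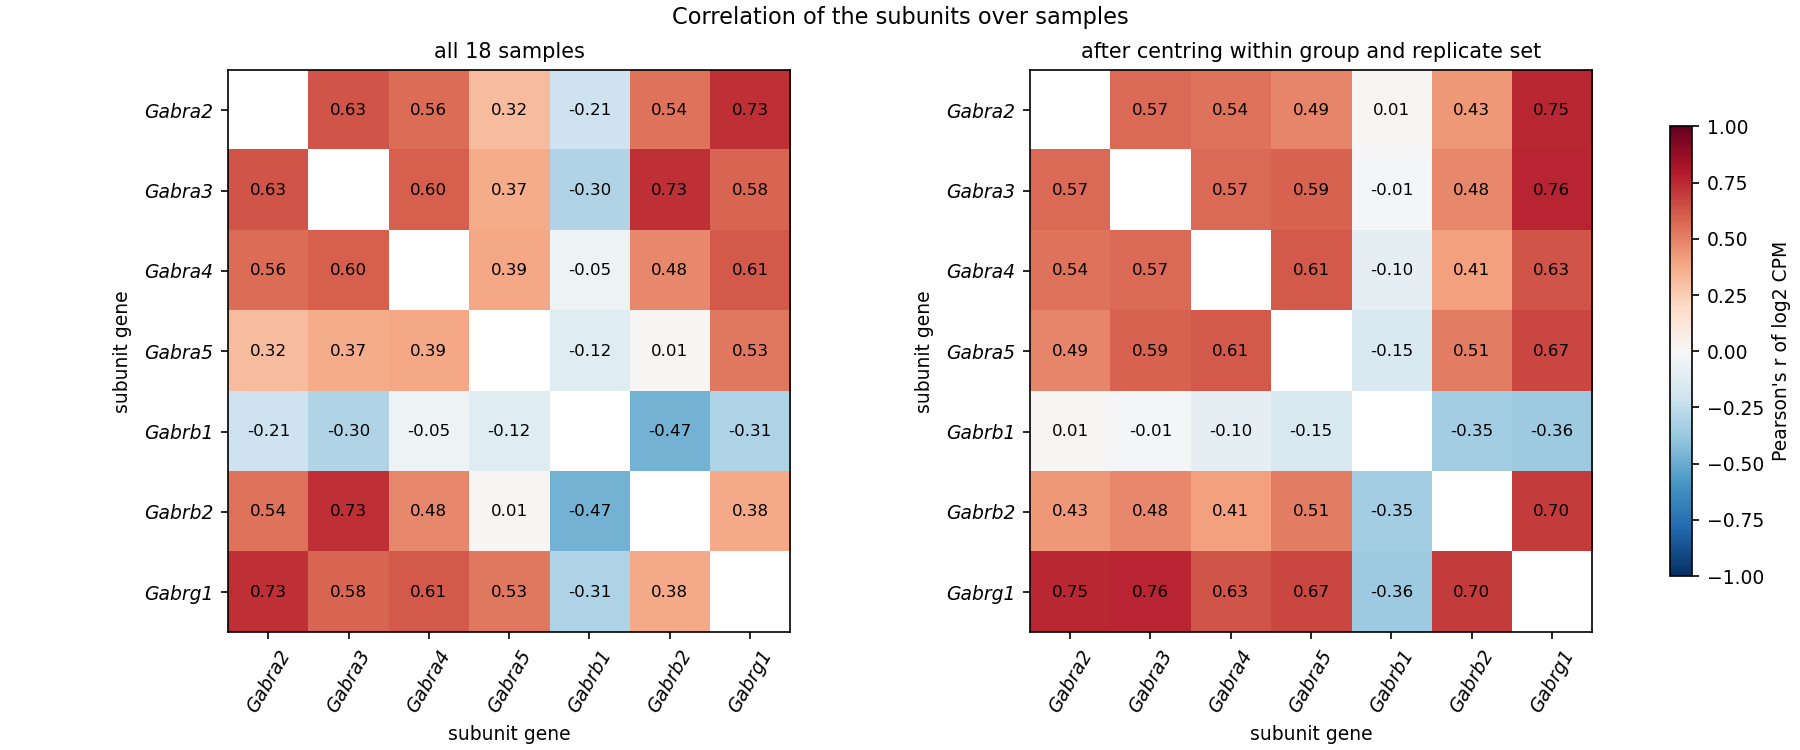
Pearson's r of log2 CPM between the 7 subunit genes (both axes) over 18 samples, as measured (left) and after centring within group and replicate series (right). Colors run from blue at -1 to red at 1. The row of Gabrb1 is blue at left (-0.05 to -0.47), and Gabra2 with Gabrg1 is red in both panels (0.73 and 0.75).

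The genes most like each subunit over the 18 samples were sought among 24861 genes, as a description. For Gabrb2 they were Strn, Reps2 and Sos1 (r = 0.953, 0.952 and 0.944), and for Gabra3 Stag2, the glycine receptor subunit gene Glra3 and Fam208a (0.920, 0.920 and 0.913). For Gabrg1 they were Mrpl35, Aasdhppt and Pfn2 (0.918, 0.916 and 0.915), and for Gabra2 Oxsr1, Fgf10 and Homez (0.885, 0.880 and 0.880). For Gabra4 they were Gm4924, Gpr85 and Zfp207 (0.878, 0.863 and 0.861), for Gabrb1 Gm38804, Zfp775 and Fhad1 (0.878, 0.870 and 0.850), and for Gabra5 Emc7, Ms4a6b and Mff (0.871, 0.848 and 0.834). The samples shared by these values differ in replicate series, and within group and series the r of these 21 genes lay between 0.741 and 0.950. The genes were picked by r over the same samples, so this range is no separate support for their likeness.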

How the data were processed

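Transcripts were sequenced from 18 samples of the dorsal horn on the injected side, in 3 groups of 6. The authors deposited raw counts per Ensembl gene, from reads mapped uniquely with Subread (mm10) and assigned to exons by featureCounts (Subread 2.0.3 and bcl2fastq 2.20.0.422 per the submitters' processing notes), without normalization. The methods name a TruSeq kit and the labels SMART-Seq amplification with Nextera XT tagmentation, which adds PCR cycles, and whether strand was used is not stated. A deposited table of the authors' DESeq2 comparison was used for gene symbols only.

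Genes were filtered with filterByExpr (minimum count 10, minimum total 15), normalized with TMM and tested with edgeR 4.0.16 (R 4.3.3) by the quasi-likelihood test, with Benjamini-Hochberg adjustment at 5% over all genes tested. SE was taken as the log2 fold change over the root of F. The female groups were compared within the 12 females, males with 12 females in all 18 samples, and the replicate series with group as a covariate, with a sex by series interaction fitted apart. In simulated data the test recovered 6.15% of genes changed 1.25-fold and 57.1% of those changed 1.5-fold between the female groups (23743 and 23714 genes). The shares were 22.6% and 65% between the sexes (24580 and 24573 genes), and 21% and 61.9% between the series (24883 and 24856 genes). The simulated spread included the differences between groups and series, and genes of all levels were changed. These shares are therefore not those of the subunits. Depth was 73590509 to 125724156 counts per sample, and 3 counts, the smallest signal taken as detectable, came to 0.0239 to 0.0408 CPM of the total. This floor covers counting error only. No replicate pair was alike within sampling noise.

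Exon lengths came from GENCODE vM21, which held 55394 of the 55573 gene IDs. Correlations used log2 CPM (prior count 2) and permutation tests with 1e+05 resamples (two-sided), adjusted over 21 pairs. After centring, these tests did not allow for the group and series means removed. The named genes are the 7 subunits, and other subunits past the threshold or with the 2 smallest p. From each further list they are the genes past the threshold or the 1 with the smallest p. Avil, Scn10a, Grp, Ncmap and Akr1c14 were named after their values were seen. Some genes of these lists are not reported here, and the lists are counted and ranked over those reported. Insyn1 and Insyn2a were not matched by symbol, and 2 of 12 neurosteroid genes, Hsd3b1 and Akr1c18, had too few counts. The list of inhibitory neuron markers shares Gad1, Gad2 and Slc32a1 with the list for GABA supply. The members, lists and tests were chosen with earlier results of these data known. Alternatives were DESeq2 1.42.0, limma voom 3.58.1, size factors, other filters, the replicate number as a block, the replicate series, single series or groups, neuronal marker scores, and leaving out each sample. DESeq2 with the series as a covariate, and leaving out samples in the fit with that covariate, were added after seeing the data.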

Additional observations from a re-analysis of the deposited data

Results flagged for a closer look

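Of 21 groups of 6 samples (7 subunits in 3 groups), 1 held a sample far from the others. Gabra5 in male replicate 2 was at 98.6 CPM, and the other 5 males were at 108 to 112, so that the gap to the nearest male was 0.726 of the range of the group. Chance flags about 1 in 20 groups. In the same sample Gabra2 (44.5 CPM) and Gabrg1 (34.4 CPM) were also low.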

How the results depend on the processing

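No subunit passed between the female groups or the sexes under any alternative run. Between the series, the call of Gabrb2 was kept in 8 of 10 alternatives and lost in F1/proestrus alone (-0.44) and F2/metestrus alone (-0.18), and that of Gabra3 was kept in 6 of 10 and lost with the pan-neuronal score (-0.11) and in each group alone; with 3 against 3 fewer samples were tested. Gabrb1 passed when F1/proestrus replicate 3 or replicate 4 was left out (0.13 in both, adjusted p 0.0383 and 0.0394), in 2 of 18 fits.

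Some estimates turned direction. Between the female groups, with replicates 1 to 3 alone, Gabra4 was at -0.04, Gabra5 at 0.03, Gabrb1 at -0.06 and Gabrb2 at -0.06, and with replicates 4 to 6 alone Gabre, at -0.28 in all 12 females, was at 0.08; Gabra5 was at 0.03 with the motor neuron score. Between the sexes Gabrb1 was at -0.03 in replicates 1 to 3 and at -0.00 against F2/metestrus, and in replicates 4 to 6 Gabra3 was at 0.02 and Gabra4 at 0.00; Gabra3 was at 0.00 against F1/proestrus. Between the series the pan-neuronal score gave 0.12 for Gabra4, 0.08 for Gabra5 and 0.05 for Gabrg1, males alone 0.03 for Gabra4 and 0.04 for Gabra5, and F1/proestrus alone 0.01 for Gabra5 and -0.00 for Gabrb1. The cause was not tested. The r of Gabra2 and Gabrb1 was 0.01 after centring.

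Leaving out each sample, the female difference ranged from -0.04 to 0.02 for Gabra5 and from -0.01 to 0.06 for Gabrb1. The sex difference ranged from -0.08 to 0.00 for Gabra3 and from -0.01 to 0.04 for Gabrb1, and with the series as a covariate from -0.05 to 0.01 and from 0.00 to 0.03. The series difference ranged from -0.03 to 0.02 for Gabra5 and from -0.07 to 0.00 for Gabrg1.

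The number of genes called between the female groups was 0 and with DESeq2 2. Between the sexes it was 49, and 166 with DESeq2, 729 with DESeq2 and the series, 133 with the series, 31 with at least 10 counts in every sample, 16 and 13 in replicates 1 to 3 and 4 to 6 alone, 27 with the motor neuron score, 13 and 22 against F1/proestrus and F2/metestrus alone. Leaving out each sample gave 25 (without male replicate 5; 30 without male replicate 4) to 77 (without F1/proestrus replicate 5), and 51 to 232 with the series as a covariate. Between the series it was 77 in F1/proestrus, 781 in F2/metestrus and 1198 in males alone, and for the interaction 13 with DESeq2.

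Samples with the same replicate number did not deviate together in all pairs. Deviations from the group means, which still hold the series, had r from -0.10 to 0.23, and 7 of 18 samples correlated best with their own number; deviations from the means of group and series had r from -0.11 to 0.13, and 3 of 18 did. These values do not show whether samples of the same number share anything beyond the number and the series. With the replicate number as a block 112 genes passed between the sexes and 0 between the female groups, and Gabrb2 had an adjusted p of 0.136 (log2 fold change -0.18).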
